A study of Mus musculus with 41 samples.

Results

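The genes S100a8, S100a9, Lcn2, Ltf, Saa3, Ngp, Camp, Csf3, Csf3r and Cxcr2, which belong to neutrophils and the acute-phase response, were followed across 41 mammary tumors. They are 10 of the 27360 genes named on the array, taken by exact name, with the brightest probe where a gene had more than 1. Camp alone had a second probe. Of the 10, 9 passed the filter on low signals and were tested among 19504 genes. Csf3 did not pass, because its reference signal was over 10 on too few arrays, and is given by its level.

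The tumors arose from Trp53-null mammary tissue, taken from donors 8 weeks old and transplanted into wild-type female BALB/c mice, so that every group shares the Trp53 deletion in the transplant, while the hosts, whose blood cells enter the tumors, carry Trp53. Mice received a low fat diet (LFD), a high fat diet (HFD), HFD changed to LFD (HFD-LFD) or LFD changed to HFD (LFD-HFD), from 3 weeks of age and with the change at 10 weeks. There were 29 epithelial tumors (8 LFD, 8 HFD, 7 HFD-LFD and 6 LFD-HFD), labelled as variable and read here as epithelial, and 12 spindle cell tumors, 3 from each regimen. Tumors were early or late with 52 weeks as the limit, 14 and 15 of the epithelial and 3 and 9 of the spindle cell tumors. The RNA of each tumor was hybridized against Universal Mouse Reference RNA, whose make-up is not given in the sources used here. A level below is the log2 ratio of tumor to reference signal, so that 0 is the level of the reference.

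Neutrophils are short-lived phagocytes made in the bone marrow under the cytokine G-CSF, the product of Csf3, which acts through the receptor Csf3r. Their granule proteins are made in sequence during maturation in the marrow, while S100a8 and S100a9, which form the cytosolic complex calprotectin, and the chemokine receptor Cxcr2 mark the mature cell. Several of the same proteins are also made by epithelium, among them lipocalin 2 (Lcn2) and lactoferrin (Ltf), the latter a milk protein, and serum amyloid A3 (Saa3) is an acute-phase protein made outside the liver by macrophages, fat and epithelium. In RNA of whole tumors, fewer cells of a type and less RNA per cell cannot be told apart.

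The labels put the tumor RNA in Cy5, while the study's methods name Cy5 for the reference. The labels were followed: Y-linked genes, which female tissue lacks, had a median log2 ratio below 0 on 38 of the 41 arrays, and over the arrays a gene varied with a median SD of 0.77 on the log2 scale in the channel read as tumor and 0.51 in the other. Trp53 itself, on the other hand, was above the reference in most tumors, with levels from -2.25 through 0.58 to 3.74 in epithelial and from 0.08 through 1.54 to 1.95 in spindle cell tumors. These values go against this reading of the channels or against the label if the probe lies in the part of Trp53 missing from the null allele, which is not given in the sources used here. Every level above or below the reference depends on this reading of the channels, and with the channels exchanged its sign would turn. The share of spots well above background was 52.4% to 94.9% on epithelial and 59.1% to 72.7% on spindle cell arrays. All spindle cell arrays lay on 3 slides of their own scan session, and the epithelial arrays on 8 other slides, so that session and histology cannot be told apart. The 8 LFD epithelial tumors filled 2 slides that held no other regimen, and LFD and slide likewise cannot be told apart. The HFD-LFD epithelial tumors also lay on slides that held no other regimen. A random block for the slide does not separate regimen from slide there. The epithelial HFD tumors MSU_42L4B and MSU_60L had a slide of their own, on which spots marked as outliers left S100a8 and Camp missing in both and S100a9, Lcn2, Ltf and Csf3r missing in MSU_60L. The scanner files of MSU_40R4A, MSU_57R and MSU_65R, all epithelial HFD, were closest to one another's columns in the authors' matrix rather than their own, and exchanging those labels changed no call of a member. Each tumor was its own sample, 3 label numbers occurred on 2 tumors each, and whether these came from 1 mouse is not given in the labels.

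S100a8 and S100a9 spanned the widest range, and did so inside both histologies. S100a8 in the epithelial tumors had its lowest level at -6.88, its median at -3.30 and its highest at 2.05, a span of 489-fold (n = 27), and in the 12 spindle cell tumors the values were -6.88, -3.06 and 2.05, a span of 486-fold. S100a9 in the 28 epithelial tumors with a value had -6.24 as the lowest, -4.03 as the median and 2.38 as the highest level, and in the spindle cell tumors -6.23, -3.42 and 2.36. Most tumors therefore lay far below the reference, and the 5 that reached its S100a8 level were MSU_62L and MSU_56R (HFD late, 2.05 and 1.48), MSU_17R (LFD early, 0.83), MSU_M84R (spindle LFD-HFD early, 2.05) and MSU_M33R (spindle LFD late, 0.38). At the other end stood MSU_27L4A (LFD late) and MSU_M86R (spindle LFD-HFD early), both at -6.88. S100a8 and S100a9 exceeded background well on all 41 arrays, so that these low values are measured ones.

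Cxcr2, the receptor through which neutrophils follow the chemokines Cxcl1, Cxcl2 and Cxcl5, had epithelial levels from -2.13 through 0.37 to 2.87 (n = 29), and spindle cell levels from -2.09 through 0.65 to 3.90 (n = 12). Its highest tumors were MSU_M84R at 3.90 and MSU_62L at 2.87, and its lowest MSU_27L4A at -2.13 and MSU_M128L at -2.09. Its probe was well above background on 37 of 41 arrays, with a median tumor signal of 189. Saa3 was above the reference in every tumor: its epithelial levels began at 0.07 (MSU_27L4A), had a median of 2.52 and ended at 5.10 (MSU_62L), and its spindle cell levels were 0.52, 2.75 and 5.50 (MSU_M33R) in the same order. Csf3, from the only probe that did not pass the filter, had tumor signals of 10.1 to 1787 with a median of 276, well above background in 35 of 41 tumors, and its reference signal was well above background on 15 arrays only. Its ratios spanned -0.77 to 6.25 over the epithelial tumors and 1.75 to 5.01 over the others, and rest on a reference near background.

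**Figure D1:**
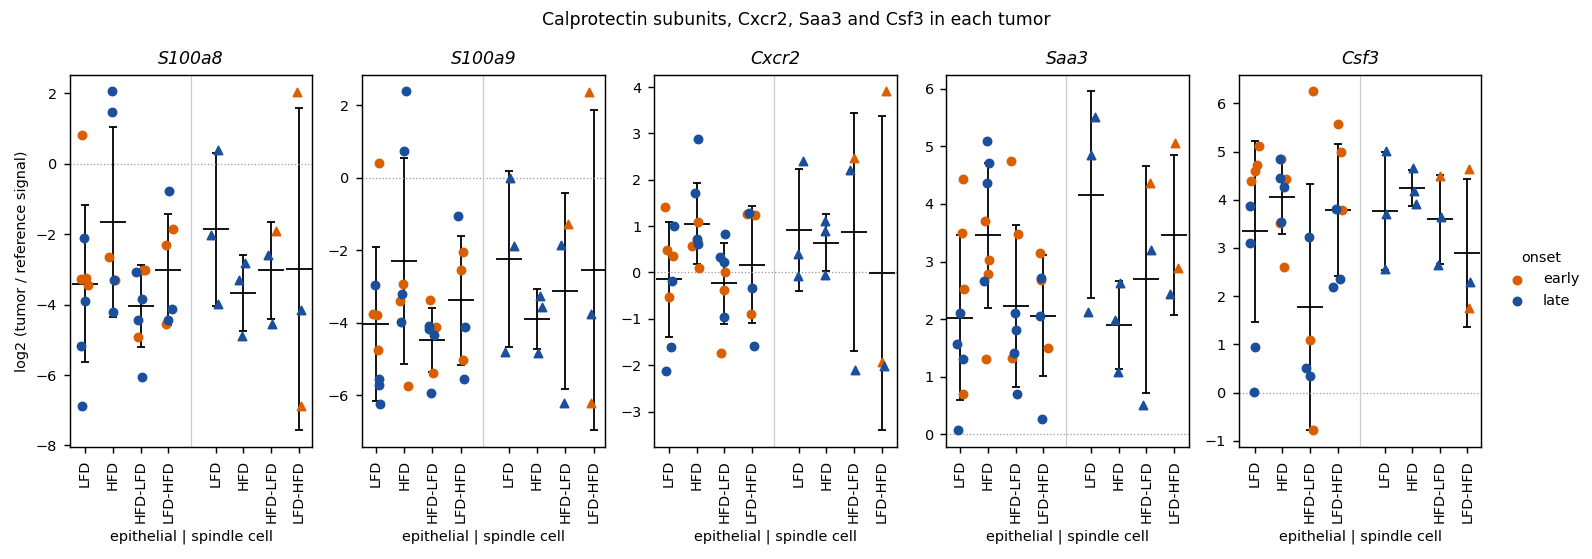
Log2 ratio of tumor to reference signal (y axis) for 5 genes in each tumor, by histology and diet regimen (x axis), with orange for early and blue for late onset, circles for epithelial and triangles for spindle cell tumors, and bars for the mean ± SD of each regimen. S100a8 spans 489-fold within the epithelial tumors, and the tumors of every regimen overlap those of every other.

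These genes varied together. Of the 36 pairs of the 9 tested members, 6 were correlated over the epithelial tumors by Pearson's r after Benjamini-Hochberg adjustment over the pairs (two-sided permutation test, 100000 resamples), and the 6 were the pairs among S100a8, S100a9, Cxcr2 and Saa3. S100a8 and S100a9, neighbors on chromosome 3, had r = 0.96 and rho = 0.90 (n = 27, adjusted permutation p = 7.2e-05 and 0.00012). S100a9 and Cxcr2 had r = 0.87 and rho = 0.91 (n = 28, adjusted permutation p = 7.2e-05 and 0.00012), and S100a8 and Cxcr2 r = 0.83 and rho = 0.83 (n = 27, the same adjusted p-values by permutation). Saa3 followed at r = 0.73 and rho = 0.71 with S100a9 (n = 28, adjusted permutation p = 7.2e-05 and 0.00045), r = 0.72 and rho = 0.69 with S100a8 (n = 27, adjusted permutation p = 7.2e-05 and 0.000864), and r = 0.66 and rho = 0.61 with Cxcr2 (n = 29, adjusted permutation p = 0.00054 and 0.0033). Without the 2 tumors farthest from the median of the first gene, r was 0.94 for S100a8 and S100a9, 0.82 for S100a9 and Cxcr2, 0.77 for S100a8 and Cxcr2, 0.63 for S100a9 and Saa3, 0.60 for S100a8 and Saa3 and 0.54 for Saa3 and Cxcr2.

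The slides hold at most 4 tumors, too few for a value within a slide. As deviations from the slide means, the same 6 pairs passed, together with Ngp and Cxcr2 (r = 0.58). In the 12 spindle cell tumors 7 pairs passed by Pearson's r, 5 of them shared with the epithelial tumors: S100a8 and S100a9 had r = 0.96 and rho = 0.97 (adjusted permutation p = 0.00036), S100a9 and Cxcr2 r = 0.89 and rho = 0.92 (adjusted permutation p = 0.0009), S100a9 and Saa3 r = 0.82 and rho = 0.83 (adjusted permutation p = 0.0095). Saa3 and Cxcr2 had r = 0.66 there, with an adjusted permutation p of 0.0981. On the tumor channel alone, where Csf3 can be set beside the others, Csf3 had r = 0.63 with S100a8, 0.61 with S100a9, 0.59 with Lcn2 and 0.56 with Cxcr2 (adjusted permutation p = 0.00264, 0.0027, 0.00458 and 0.0069), and r = 0.26 with Saa3 (adjusted permutation p = 0.445). Lcn2, Ltf, Ngp, Camp and Csf3r were in no correlated pair of the epithelial tumors on the ratio scale, with r between -0.23 and 0.36 in all pairs that held one of them.

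**Figure D2:**
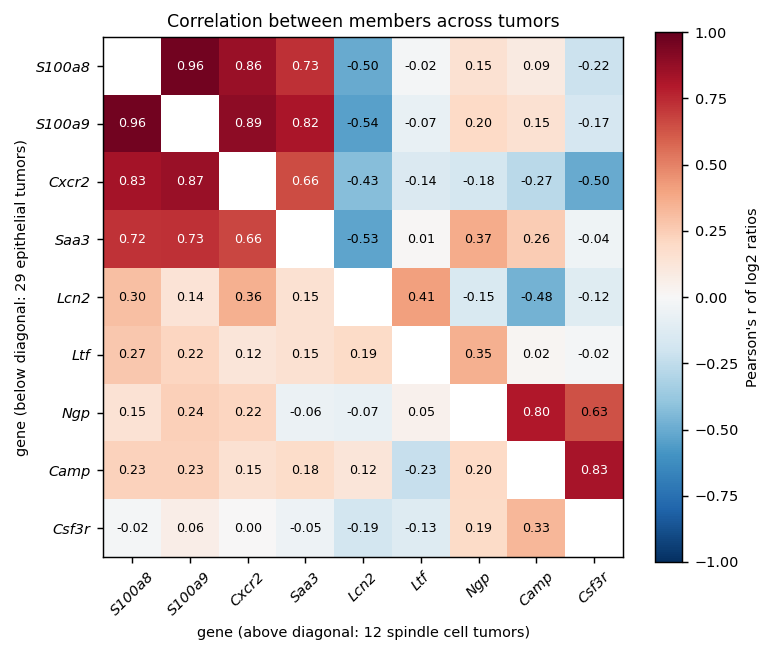
Pearson's r of the log2 ratios for each pair of tested members, below the diagonal over the 29 epithelial tumors and above it over the 12 spindle cell tumors, with red for positive and blue for negative r. The block of S100a8, S100a9, Cxcr2 and Saa3 lies between 0.66 and 0.96 in both histologies, and Lcn2 is below 0 against all 4 in the spindle cell tumors.

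**Figure D3:**
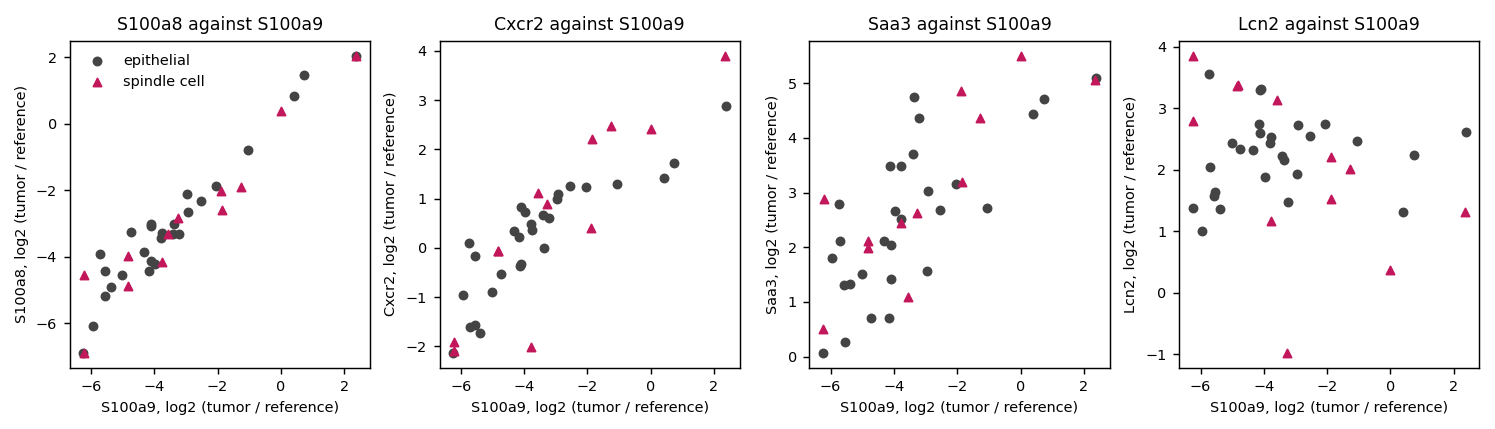
Log2 ratio of S100a8, Cxcr2, Saa3 and Lcn2 (y axes) against that of S100a9 (x axis), with 1 gray circle for each epithelial and 1 pink triangle for each spindle cell tumor. S100a8, Cxcr2 and Saa3 climb with S100a9 over the whole range in both histologies, with epithelial r of 0.96, 0.87 and 0.73, while Lcn2 has an r of 0.14.

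By likeness over the epithelial tumors among 19136 genes well above background, the 3 genes closest to S100a9 were S100a8 (r = 0.96), Stfa2l1 (0.92), a stefin A gene expressed in neutrophils, and Gm10872 (0.91). Those closest to S100a8 were S100a9, Gm10872 (0.90) and Mxd1 (0.87), an antagonist of Myc, and those closest to Cxcr2 were S100a9 (0.87), Stfa2l1 (0.86) and Gm10872 (0.84). For Saa3 they were Rarres2, which encodes the chemoattractant chemerin (0.81), Adam19 (0.79) and Mmp19 (0.77), both metalloproteinases. For Lcn2 they were Serinc2 (0.82), Wfdc18 (0.80) and Dusp6, a phosphatase of ERK (0.77), and for Ltf the nucleoside transporter Slc28a3 (0.78), Gdpd1 (0.72) and the glutamate transporter Slc1a1 (0.71). These values are a description, given for the closest of many genes.

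The promoters of the 4 genes that varied together are shown with every match to 6 motifs searched on both strands. Promoter sequences came from RefSeq on GRCm38.p6, which holds 9 of the 10 members, all except Csf3, and the 250 bases before the start are printed 5′ to 3′ on the gene's strand, with matches in capitals. Letters were TTGCNNAA for C/EBP, the factor of granulocyte genes and of the acute phase, TTCNNNGAA for STAT, GGNNNTTCC for NF-kB, TGANTCA for AP-1, GAGGAA for PU.1, the factor of myeloid cells, and TATAAA for the TATA box.
S100a8 (chr3:90668821-90669070, plus strand): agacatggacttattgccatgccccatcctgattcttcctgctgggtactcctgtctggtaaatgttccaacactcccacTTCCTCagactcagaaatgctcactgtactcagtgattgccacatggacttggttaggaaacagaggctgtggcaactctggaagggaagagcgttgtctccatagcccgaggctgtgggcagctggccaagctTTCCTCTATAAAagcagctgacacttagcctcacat
S100a9 (chr3:90695722-90695971, minus strand): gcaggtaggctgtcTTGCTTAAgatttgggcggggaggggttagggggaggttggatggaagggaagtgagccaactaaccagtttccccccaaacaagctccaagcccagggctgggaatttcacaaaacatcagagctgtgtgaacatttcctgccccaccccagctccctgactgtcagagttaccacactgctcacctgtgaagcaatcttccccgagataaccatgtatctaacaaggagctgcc
Cxcr2 (chr1:74153744-74153993, plus strand): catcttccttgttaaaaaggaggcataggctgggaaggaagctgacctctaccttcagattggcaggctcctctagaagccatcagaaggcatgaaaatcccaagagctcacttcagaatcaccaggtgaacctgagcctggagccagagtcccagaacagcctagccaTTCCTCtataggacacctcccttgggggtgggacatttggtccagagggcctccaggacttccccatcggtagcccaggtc
Saa3 (chr7:46715677-46715926, minus strand): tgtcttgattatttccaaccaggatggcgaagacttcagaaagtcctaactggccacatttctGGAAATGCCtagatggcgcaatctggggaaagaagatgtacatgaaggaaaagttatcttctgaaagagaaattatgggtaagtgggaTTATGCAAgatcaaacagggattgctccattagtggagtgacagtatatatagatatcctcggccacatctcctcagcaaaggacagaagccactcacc
S100a8 held PU.1 letters 170 and 36 bases before the start and a TATA box 30 bases before it. S100a9 held C/EBP letters at -236, and TATAAA at the start itself, beyond the printed stretch. Cxcr2 held PU.1 letters at -81, and again 6 bases after the start. Saa3 held NF-kB letters at -187 and C/EBP letters at -99. Over the 300 bases of the table, C/EBP letters were in 5 of the 9 member promoters (S100a9, Lcn2, Ltf, Saa3 and Ngp) and in 10.8% of all 32851 promoters, and PU.1 letters in 5 (S100a8, Lcn2, Ltf, Csf3r and Cxcr2) and in 28.3%. NF-kB letters were in 2 (Saa3 and Csf3r) against 18.5%, TATAAA in 2 (S100a8 and S100a9) against 13.6%, and STAT and AP-1 letters in 0 against 8.3% and 7.8%. No motif was common to the 4 genes.

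The granule proteins differed from these and from each other. Lcn2, which binds bacterial siderophores, was above the reference in all 28 epithelial tumors with a value, from 0.999 through 2.32 to 3.55, and ran from -0.98 (MSU_M63L) through 2.11 to 3.85 (MSU_M128L) in the spindle cell tumors. Ltf, which binds iron, ran from -2.53 (MSU_108R) through 1.37 to 5.20 (MSU_101L4A), a span of 212-fold, in epithelial tumors and from -3.10 (MSU_M54R) through 1.06 to 3.34 (MSU_M32L) in spindle cell tumors. MSU_101L4A, the highest in Ltf, had an S100a8 level of -4.13, while MSU_62L, MSU_56R and MSU_17R, the 3 highest epithelial tumors in S100a8, had Ltf levels of 2.15, 3.60 and 3.10, all above the Ltf median. S100a8 and Ltf had r = 0.27 over the epithelial tumors (rho = 0.20, n = 27, adjusted permutation p = 0.612 and 0.706).

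Camp, the precursor of the antimicrobial peptide cathelicidin, and Ngp, neutrophilic granule protein, were below the reference in all tumors. The lowest, median and highest Camp levels were -7.50, -6.12 and -4.48 in epithelial (n = 27) and -6.45, -5.84 and -3.69 in spindle cell tumors. Those of Ngp were -5.87, -3.94 and -1.79 (n = 28) and -5.14, -4.81 and -2.80. Their tumor signals were dim, with medians of 136 for Camp and 190 for Ngp against reference medians of 9336 and 2879. Both moved with the array: over the epithelial tumors Ngp had r = -0.81 and rho = -0.59 with the SD of all log2 ratios of its array (adjusted permutation p = 0.00027 and 0.0139), and Camp r = -0.53 and rho = -0.59 (adjusted permutation p = 0.0357 and 0.0139), among 27 relations of members with 3 array measures. That SD ran from 1.24 to 1.84 over the spindle cell and from 1.13 to 1.89 over the epithelial arrays. The spindle cell arrays other than MSU_M32L (1.24) and MSU_M76R (1.61) lay between 1.74 and 1.84. Of the epithelial arrays only MSU_11R (1.77), MSU_22R (1.78), MSU_42L4B (1.89) and MSU_60L (1.81) reached 1.74. Among the epithelial arrays the SD ran from 1.31 to 1.78 for LFD and from 1.13 to 1.64 for HFD-LFD. Ngp also had r = 0.69 and rho = 0.58 with the share of spots well above background (adjusted permutation p = 0.00108 and 0.0139). The part of the array in the differences of Camp and Ngp between groups was not tested. The genes most like Ngp were Cryba1 (0.93), Lypd8 (0.89) and Dspp (0.89), genes of lens, gut and tooth by their usual roles, and those most like Camp were Cdhr2 (0.81), Map2k5 (0.77) and Trank1 (0.76).

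**Figure D4:**
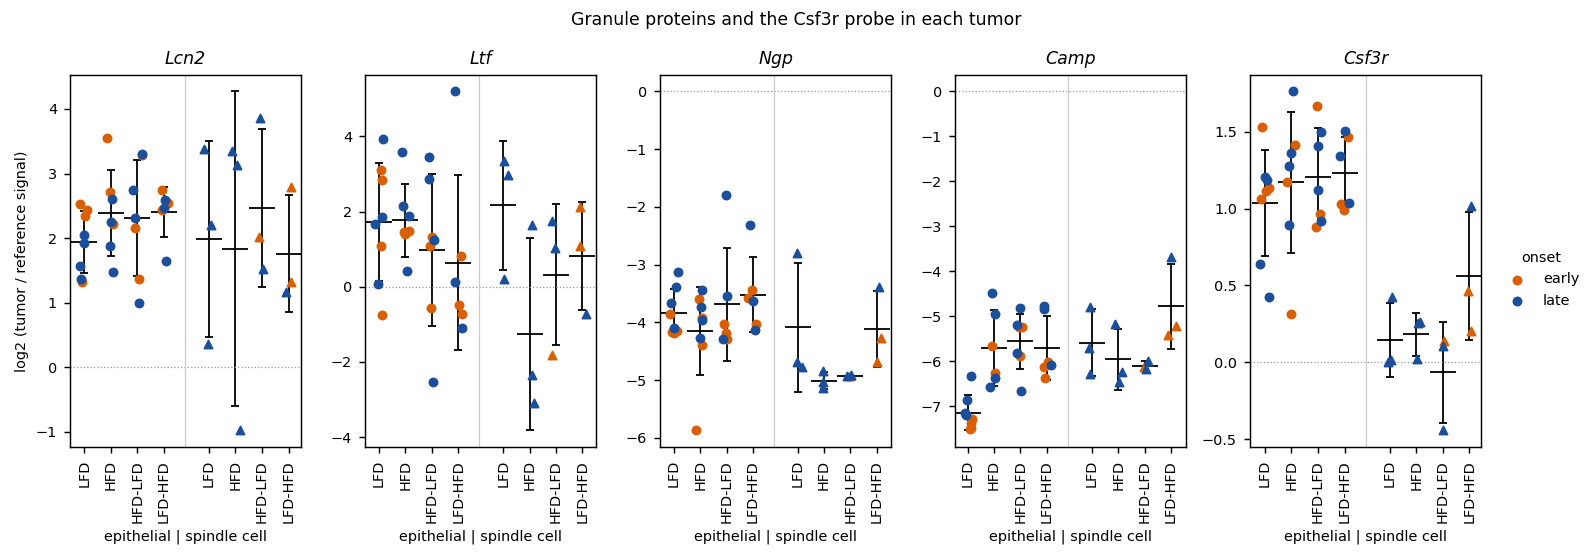
Log2 ratio of tumor to reference signal (y axis) for Lcn2, Ltf, Ngp, Camp and Csf3r in each tumor, by histology and diet regimen (x axis), with orange for early and blue for late onset, circles for epithelial and triangles for spindle cell tumors, and bars for the mean ± SD of each regimen. Camp lies between -7.50 and -6.32 in the 8 LFD epithelial tumors, and the Csf3r probe is lower on average in spindle cell than epithelial tumors.

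Between the histologies, the probes of 2 of the 9 tested members differed, both lower in spindle cell tumors (limma, Benjamini-Hochberg adjustment over all genes, threshold 0.05). Of all 19504 genes 19.8% were called and 12.1% were called lower, so that 2 of 9 is near the background. The first was the probe for Csf3r, which shares sequence with probes of other genes and may not measure Csf3r alone, with levels from -0.44 through 0.17 to 1.02 in the spindle cell and from 0.32 through 1.15 to 1.76 in the epithelial tumors, whose ranges overlapped, and means of 0.21 ± 0.35 (SD, n = 12) and 1.15 ± 0.34 (n = 28). The difference was -0.95 (SE 0.12, adjusted p = 5.49e-07 by limma). The second was Ngp, with means of -4.53 ± 0.72 and -3.82 ± 0.71 and a difference of -0.71 (SE 0.24, adjusted p = 0.0331 by limma).

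The Csf3r probe shares part of its sequence with probes of other genes. It lies on chr4:125721478-125721537 in NCBI37/mm9, 3165 bases into the transcript, and its last bases, shown because probes of other genes hold them too, resemble those of B1, a short interspersed repeat with very many copies in the mouse genome. No repeat annotation was used here, and the part of these bases in the difference was not tested. The ends of 3 probes are printed 5′ to 3′, with runs of at least 15 bases shared with the Csf3r probe in capitals (for Csf3r itself, with TC1653005).
Csf3r: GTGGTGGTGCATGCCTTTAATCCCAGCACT
TC1653005: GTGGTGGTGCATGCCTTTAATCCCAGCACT
A_55_P1984523: gatggcaCATGCCTTTAATCCCAGCACgtg
On the array, 10 probes of other genes shared a run of at least 15 bases with it on the same strand, against 2 for Ngp (Kdelc2 and Tfam) and 0 for the other 8 members. These 10 had a median r of 0.59 with the Csf3r probe over the epithelial tumors, from -0.13 to 0.97, against a median of -0.03 and a 95th percentile of 0.48 over the 27303 other probes past the filter. Of the 10, 9 passed the filter themselves, and A_55_P1968428 (r = 0.37, difference -0.71) did not. TC1653005, which shares 30 bases, had r = 0.97, and Mtif2, a mitochondrial translation factor, r = 0.96. They and Siglech (r = 0.95), a lectin of plasmacytoid dendritic cells, were the 3 genes most like Csf3r, whose r with Cxcr2 was 0.00. All 10 were lower in spindle cell than epithelial tumors, by a median difference of -0.72 and from -0.90 to -0.20, next to -0.95 for the Csf3r probe itself. Over all genes tested the median difference was -0.07. A higher r did not always go with a larger difference: Slc10a1 had r = 0.84 and -0.20, and Gm17753 r = -0.13 and -0.85. The Csf3r probe was also bright, with tumor signals of 28747 to 135462. These probes were sought after the Csf3r values were seen, and the comparison is a description. Whether the values of this probe measure Csf3r is not known, and values given for Csf3r are those of the probe.

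**Figure D5:**
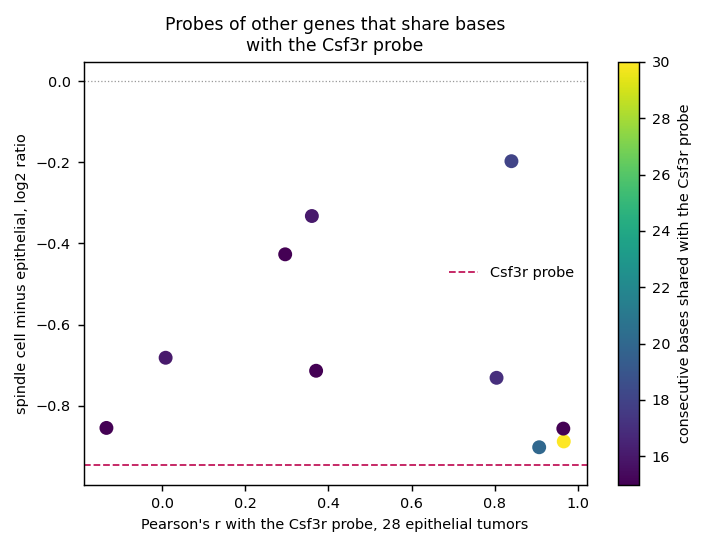
Each point is 1 of the 10 probes of other genes that share at least 15 consecutive bases with the Csf3r probe, with Pearson's r with it over the epithelial tumors (x axis), the difference of mean log2 ratio between spindle cell and epithelial tumors (y axis) and the shared run as color, and the dashed line marks the Csf3r probe. All points lie below 0, and TC1653005, with 30 shared bases, lies at -0.89 next to -0.95 for Csf3r.

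Both calls depended on how the arrays were read. On the tumor channel alone, without the reference, the difference was -0.39 for Csf3r (adjusted p = 0.112 by limma) and -0.65 for Ngp (adjusted p = 0.134 by limma). The Ngp call was also lost with the slide as a random block (-0.69, adjusted p = 0.114 by limma), after normexp and loess (-0.63, adjusted p = 0.119 by limma), and without any 1 of MSU_M118R, MSU_M129L, MSU_M33R, MSU_M54R, MSU_M56LA or MSU_M63L.

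The other 7 members were not called between histologies, and their intervals were wide. S100a9 was at -2.95 ± 2.55 in spindle cell (n = 12) and -3.58 ± 2.10 in epithelial tumors (n = 28), a difference of 0.63 with a 95% interval from -0.87 to 2.14. The intervals were -1.26 to 1.67 for S100a8, -0.57 to 1.33 for Cxcr2, -0.39 to 1.54 for Saa3, -0.86 to 0.40 for Lcn2, -2.04 to 0.43 for Ltf and -0.12 to 1.09 for Camp. The smallest adjusted p-value among these 7 was 0.255, for Camp. Without the filter, Csf3 differed by 0.32 (SE 0.55, adjusted p = 0.709 by limma).

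By histology 10 of the 91 tested genes of 5 other lists of the pathway were called, against the 19.8% called of all genes. Of 18 tested neutrophil granule genes 1 was called, the gelatinase Mmp9, higher in spindle cell tumors by 1.87 (SE 0.63), with a median of 0.15 over the list against -0.07 over all genes. Of 21 neutrophil surface and cytosol genes 1 was called, the stefin Stfa2, higher by 0.98 (SE 0.36), with a list median of 0.24. Of 11 chemoattractants and growth signals 2 were called, the platelet chemokine Ppbp higher by 2.04 (SE 0.72) and Cxcl15 lower by -1.53 (SE 0.53), with a list median of 0.40. Of 22 acute-phase plasma proteins 2 were higher, Lrg1 by 0.89 (SE 0.33) and hemopexin (Hpx) by 0.50 (SE 0.14), and 2 lower, Apcs by -0.88 (SE 0.18) and hepcidin (Hamp) by -0.58 (SE 0.16), with a list median of -0.08. Of 19 genes of acute-phase and granulopoietic signalling 1 was higher, Socs3, an inhibitor of STAT3, by 0.43 (SE 0.15), and 1 lower, the lipocalin 2 receptor Slc22a17, by -0.70 (SE 0.26), with a list median of 0.08. As a check of the labels, 6 of 10 fibroblast and mesenchyme markers were higher in spindle cell tumors, among them vimentin (Vim) by 1.19 (SE 0.30) and Col1a1 by 1.22 (SE 0.35), and 0 of 10 luminal and basal epithelial markers were called, with a list median of -0.70. Of 11 secretory mammary epithelial markers 3 were lower, the caseins Csn1s2a by -2.89 (SE 0.94) and Csn3 by -1.48 (SE 0.48) and the alveolar factor Elf5 by -1.63 (SE 0.45), with a list median of -1.13. Ltf and Lcn2, which were not called, differed by -0.81 and -0.23. Of 10 macrophage markers 2 were higher, near the 19.8% called of all genes: Cd163 by 1.95 (SE 0.26) and C1qb by 0.87 (SE 0.24), with a list median of 0.32. Of 8 eosinophil and mast cell markers the eosinophil ribonucleases Ear1 and Ear2 were lower, by -2.07 (SE 0.48) and -1.54 (SE 0.46), and the mast cell tryptase Tpsb2 higher by 0.70 (SE 0.24), with a list median of -0.52. The lists that follow were near or below the share of all genes. Of 8 lymphocyte markers Cd8a was lower, by -1.39 (SE 0.48), with a list median of -0.57. Of 16 squamous keratinizing markers the keratin Krt10 was higher by 0.49 (SE 0.17), with a list median of 0.10. Of 8 skeletal muscle markers Mylpf and Pygm were lower, by -0.58 (SE 0.16) and -0.47 (SE 0.14), with a list median of -0.36, while no monocyte, erythroid or adipocyte marker was called. Their part in the members' values was not tested.

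Early and late epithelial tumors did not differ in any tested member (0 of 9 called at 0.10, against 0.149% of all genes, and 0 by the SAM statistic). At an unadjusted p under 0.05 limma had 1 member, against 13.3% of all genes: Ngp, at -4.12 ± 0.58 in early (n = 14) and -3.53 ± 0.72 in late tumors (n = 14), a difference of -0.59 (SE 0.24, adjusted p = 0.293 by limma). S100a8 was at -2.89 ± 1.44 in early (n = 12) and -3.25 ± 2.51 in late tumors (n = 15), with a 95% interval of the difference from -1.22 to 1.93. S100a9 differed by 0.02 with an interval from -1.55 to 1.58, and by -1.64 (SE 0.90, adjusted p = 0.627 by limma) with the slide as a fixed block, which compares tumors within the 3 slides that hold both onsets. Within those slides early minus late S100a9 was -3.85, -1.45 and 0.43. On the first of them the 2 early tumors were LFD-HFD and the 2 late ones HFD, so that onset and regimen cannot be told apart in the -3.85, which also enters the fixed block. The slides with -1.45 and 0.43 held LFD-HFD alone and HFD alone. The latter held MSU_40R4A, MSU_57R and MSU_65R, whose files were closest to one another's columns. Exchanging those labels would make MSU_57R early and MSU_65R late, and the values within slides were not computed that way. Lcn2 had an interval from -0.12 to 0.83 and Saa3 from -0.42 to 1.57. Csf3, left out of the test by the filter, ranged from 4.38 to 5.12 in the 4 early LFD tumors and from 0.02 to 3.86 in the 4 late ones. These lay on separate slides, so that onset and slide cannot be told apart. On the 3 slides with both onsets, early minus late Csf3 was -0.26, 2.80 (1 early tumor) and 0.74, with a reference near background. None of the 91 tested genes of the other 5 lists was called by onset, and with the labels of the 3 HFD tumors exchanged the count of members stayed at 0.

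Between the 4 regimens among the epithelial tumors, Camp alone was called (limma's F test, adjusted p = 0.0639, 1 of 9 members at 0.10 against 0.431% of all genes). All 8 LFD tumors lay between -7.50 and -6.32, with a mean of -7.14 ± 0.39. The HFD tumors were at -5.71 ± 0.84 (n = 6), the HFD-LFD tumors at -5.55 ± 0.61 (n = 7) and the LFD-HFD tumors at -5.70 ± 0.70 (n = 6). The lowest values of these were -6.57, -6.66 and -6.37, so that each overlapped the LFD range at its edge. The 3 contrasts share the LFD tumors and are not independent. HFD-LFD exceeded LFD by 1.59 (SE 0.32, adjusted p = 0.0249 by limma), 1 member of 9 against 0.964% of all genes called and 0.308% called higher. HFD exceeded LFD by 1.43 (SE 0.34, adjusted p = 0.367 by limma) and LFD-HFD by 1.44 (SE 0.34, adjusted p = 0.319 by limma), where no gene of the array was called (0% in both). Camp signals in the tumor channel had mean log2 values of 6.28 in LFD against 7.21, 7.56 and 7.56 in HFD, HFD-LFD and LFD-HFD, and in the reference channel 13.4 against 13.5, 13.1 and 13.3. With the slide as a random block HFD-LFD exceeded LFD by 1.60 with an adjusted p of 0.329 by limma, and no member was called. Each of these regimens filled slides of its own, so that regimen and slide cannot be told apart in this contrast. The F test lost Camp without any 1 of MSU_11R, MSU_17R, MSU_19R, MSU_22R, MSU_27L4A, MSU_31R or MSU_122Rb, with a count of 0 each time.

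The other members were not called by regimen, though HFD tumors were numerically the highest for the group that varied together. S100a8 was at -1.65 ± 2.70 in HFD (n = 6) and -3.40 ± 2.24 in LFD (n = 8), a difference of 1.75 (SE 1.02, adjusted p = 0.607 by limma). S100a9 differed by 1.74 (SE 0.998), Saa3 by 1.43 (SE 0.62, adjusted p = 0.499 by limma) and Cxcr2 by 1.20 (SE 0.51, adjusted p = 0.487 by limma). Within HFD the 2 highest tumors, MSU_62L and MSU_56R, stood at 2.05 and 1.48 for S100a8 and the other 4 between -4.20 and -2.65. Both lay on 1 slide with the LFD-HFD tumors MSU_80L and MSU_92R, which they exceeded in mean S100a8 by 3.85. MSU_42L4B, without an S100a8 value, had the lowest S100a9 level of the HFD tumors, at -5.74. The part of the slide in the HFD means was not tested. At an unadjusted p under 0.05 there were 3 members for HFD against LFD (Saa3, Camp and Cxcr2; 9.18% of all genes) and 1 for LFD-HFD (Camp; 6.26%). Of the 11 tested chemoattractants and growth signals, Lif was lower in HFD-LFD than LFD by -1.58 (SE 0.42, adjusted p = 0.0975 by limma), and no other gene of the 5 pathway lists was called in any of the 3 contrasts. Csf3, left out by the filter, had slide means of 4.7 and 1.98 on the LFD slides and 2.19 and 1.36 on the HFD-LFD slides. Its means were 4.27 and 3.07 on the slides of HFD alone, 3.48 on that of LFD-HFD alone and 4.52 on that of HFD and LFD-HFD.

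Grouped by time of exposure, no member was called. After pubertal HFD in all 41 tumors 0 of 9 passed (0.00513% of all genes), 0 had an unadjusted p under 0.05 by limma (6.8% of all genes) and 0 passed by the SAM statistic, with Cxcr2 at a difference of 0.41 and an interval from -0.45 to 1.27. With adult HFD in the epithelial tumors 0 of 9 passed (0% of all genes) and 2 had an unadjusted p under 0.05 (3.96% of all genes), Cxcr2 at 0.86 (SE 0.38) and Camp at 0.69 (SE 0.32), both with an adjusted p of 0.947 by limma. S100a9 differed by 1.45 with adult HFD, with an interval from -0.03 to 2.92, and S100a8 by 1.37, with an interval from -0.12 to 2.87.

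In the 12 spindle cell tumors no member differed between regimens (0% of all genes called; 0 members and 3.74% of genes at an unadjusted p under 0.05 by limma) or between early and late onset (0%; 0 members and 2.05%). S100a9 was higher in early than late spindle cell tumors by 1.65, within an interval from -1.66 to 4.96, which 3 early tumors leave wide. The 2 early LFD-HFD tumors were the extremes of their histology for S100a8, MSU_M84R at 2.05 and MSU_M86R at -6.88. No member differed between histologies in its onset effect (0.0256% of all genes called; 0 members and 3% of genes at an unadjusted p under 0.05 by limma) or in its pubertal HFD effect (0.451%; 2 members and 12.2%). The 2 were Camp, whose pubertal difference was lower in spindle cell tumors by -1.74 (SE 0.53, adjusted p = 0.178 by limma), and Saa3, by -2.35 (SE 0.91, adjusted p = 0.28 by limma). Without MSU_M18L, Camp passed in the latter test, giving a count of 1.

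Markers of other cells moved with some members over the epithelial tumors, in 99 relations of the 9 members with 11 lists, of which 14 passed by Pearson's r. Saa3 followed the fibroblast and mesenchyme list (r = 0.68, rho = 0.66, n = 29, adjusted permutation p = 0.00792 and 0.0148, and r = 0.58 without the 2 tumors farthest in Saa3), whose level ran from -3.27 to -0.16 over up to 10 genes. No other relation passed by rho, and Saa3 had r = 0.60 with 10 macrophage genes (rho = 0.55, adjusted permutation p = 0.0287 and 0.0818). S100a9 and S100a8 had r = 0.60 and 0.60 with 16 squamous keratinizing genes (rho = 0.55 and 0.42, adjusted permutation p = 0.0375 by r in both and 0.0818 and 0.171 by rho), which keratinocytes share with S100a8 and S100a9. That list lay between -4.23 and -0.35. Saa3 had r = 0.55 with the same list (adjusted permutation p = 0.0375). S100a9 and Cxcr2 also followed the fibroblast and mesenchyme list, with r = 0.53 and 0.52 (adjusted permutation p = 0.0401 in both), which without the 2 tumors farthest in each gene was 0.35 and 0.32. S100a9 and Saa3 had r = 0.57 and 0.51 with 5 monocyte genes (adjusted permutation p = 0.038 and 0.0401), whose level ran from -3.04 (MSU_60L) to 1.72. By rho these were 0.37 and 0.47 (adjusted permutation p = 0.276 and 0.082). Of the 5 monocyte genes, Chi3l3 is also on the list of neutrophil granule genes, so that this list is not one of other cells alone. S100a9 and Saa3 had r = 0.50 and 0.51 with 7 erythroid genes (adjusted permutation p = 0.0432 in both), which mark blood and lay between -4.39 and -3.36. The Csf3r probe had r = 0.52 with 7 adipocyte and 0.50 with 8 lymphocyte genes (adjusted permutation p = 0.0401 and 0.0432). Ltf had r = 0.56 with 11 secretory mammary genes (rho = 0.52, adjusted permutation p = 0.0375 and 0.0818). The part of these cells in the levels of the members was not tested.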

How the data were processed

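The authors deposited scanner files with the intensity of each spot in both channels, processed by Agilent Feature Extraction (8.5.1.1 per the labels), flags for outlier and background spots, and a matrix of log2 ratios, for which the study's methods name Lowess normalization, a filter on intensity and nearest-neighbor imputation. Here the log2 ratio of processed red to green signal was used, with spots averaged by probe, outlier spots (1.48%) missing, and probes kept with signals over 10 in both channels on 80% of arrays. Of 19504 genes tested, 15693 have their symbol in the gene table of GRCm38.p6. Tests used limma 3.58.1 in R 4.3.3 with Benjamini-Hochberg adjustment over all genes, at 0.05 for histology and 0.10 otherwise. Correlations used NumPy 2.4.6 in Python 3.11.15. The fits and the permutation test were tested on simulated data.

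Named are all members, the called genes of each list with the largest difference, and the 3 genes most like each member. Members and lists were chosen with earlier results of these data known. The tumor channel alone, slide deviations, marker relations and shared probes were added after seeing the values. Nothing says whether samples are separate mice. The fits without a slide block treated the tumors as independent, so that their p-values rest on the spread between tumors and not between mice. The number of arrays limits precision.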

Additional observations from a re-analysis of the deposited data

Results flagged for a closer look

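Of 42 sets of values from groups of 4 tumors, 5 held a tumor far from the others by Dixon's test, which chance gives in about 1 of 20. In LFD early epithelial tumors, S100a8 stood at 0.83 in MSU_17R against -3.44 to -3.24 in the other tumors, and Lcn2 at 1.32 in the same tumor against 2.34 to 2.53. In that group Ngp stood at -3.85 in MSU_11R against -4.19 to -4.15, and Csf3r at 1.53 in MSU_31R against 1.06 to 1.14. In HFD-LFD late epithelial tumors, S100a9 stood at -5.95 in MSU_108R against -4.33 to -4.10.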

How the results depend on the processing

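The counts of called members by onset, for HFD against LFD, after pubertal HFD, with adult HFD, among spindle cell tumors and for a different onset effect were 0 under every alternative run. Of the 2 members called by histology, 1 (the Csf3r probe) was called after normexp and loess, with outlier spots kept, with 1 tumor per shared number and with the slide as a random block, and 0 on the tumor channel alone, with 1 to 2 when single tumors were left out. Between regimens the count of 1 fell to 0 after normexp and loess, with outlier spots kept, with 1 tumor per shared number, with the slide as a random block and at a threshold of 0.05, and lay between 0 and 1 when single tumors were left out. For HFD-LFD against LFD it was 0 with outlier spots kept, with 1 tumor per shared number and with the slide as a random block, and 2 (Camp and the Csf3r probe) on the tumor channel alone, where LFD-HFD against LFD had 1 (Camp). The pubertal effect differed between histologies for 2 members (Camp and Ngp) after normexp and loess, and for 0 to 1 when single tumors were left out. On the tumor channel alone 12 of 45 pairs were correlated, 6 of them the pairs of the ratio scale. The cause of these changes was not tested. No paired analysis was possible because any compared groups have at most 1 label number in common. For single members and pairs, 1158 alternative values kept their sign and their side of the threshold, 10 passed only under the alternative, 10 only in the reported fit, and the rest changed sign without a call on either side. Dim probes (Ngp, Camp, Cxcr2 and Csf3) limit what can be seen.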
